A study of Arabidopsis thaliana with 6 samples.

Results

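The loci described here are 98 nuclear loci of Arabidopsis thaliana whose row names end in a version-like suffix after the locus number, a form given in the expression table to transposon-type and pseudogene loci. They were chosen from 523 suffixed loci among 24438 rows as those with at least 1 RPKM (reads scaled to the length of the gene model and to the total of the library) in at least 2 of 6 root libraries. The levels themselves therefore chose the members, and that they are expressed is no finding. The 2 loci just inside that threshold, AT3G28945.1 and AT2G42050.1, had a second highest value of 1.001 and 1.04 RPKM, and the 2 just outside it, AT5G35420.1 and AT1G67626.1, had 0.983 and 0.928 RPKM. Per the labels, the libraries of all 3 groups were made from roots of wild-type plants of the Columbia ecotype at the vegetative stage. Whether the plants of the 3 groups carried the same sequence was not tested, and some stretches described below held no read in either ion Al library. 2 libraries came from plants treated with ionic aluminium (ion Al), 2 from plants treated with aluminium oxide nanoparticles (nAl2O3) and 2 from the control group. The study was designed to set the molecular responses to the dissolved and the particulate form side by side. The sources used here give no dose, exposure time or growth medium.

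Transposons are DNA segments that can move or copy themselves within a genome. Retrotransposons do so through an RNA that is copied back into DNA, and those with long terminal repeats usually prime that copying with a host tRNA. In plant tissues most of them are kept silent by DNA methylation, by histone marks and by small RNAs that direct new methylation. Sadhu elements are short non-coding retrotransposons of Arabidopsis, known for silencing that differs between natural accessions. MUSTANG genes derive from the transposase of Mutator-like DNA transposons and are now host genes.

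The annotation (RefSeq, TAIR10.1) lists 96 of the 98 loci as pseudogenes and 2, the MUSTANG genes MUG3 and MUG7, as protein coding. It names 7 as Sadhu, 7 as MUSTANG, 2 as similar to non-LTR retrotransposons and 1 as CYTOSLEEPER, a host gene derived from a hAT transposase. It names 2 others after protein families, AT1G35612.1 as a pseudogene of a Ulp1 protease and EXT11 (AT5G49080.1), a pseudogene, after the extensins of the cell wall. Whether these 2 are part of a transposon was not tested. No kind is named for the remaining 79. Chromosomes 1 to 5 hold 22, 16, 22, 15 and 23 of the loci. The gene models span 321 to 9903 bases with a median of 2177.5 bases, and 82 consist of 1 exon. 49 loci had no match of at least 90% identity elsewhere in the genome, whereas 13 had at least 50% of their span matched at 95% identity elsewhere. The sources used here do not say how reads that match several places were counted, so the levels of such copies are uncertain. 19 loci overlap another gene, 13 of them on the other strand. The sources used here do not say how strand was handled, so reads of these 13 may include reads of the overlapping gene.

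The 7 Sadhu loci share little sequence along their length. 9 of 21 pairs could be aligned, at 67.1% to 90.6% identity over stretches of 32 to 658 bases. Near their start, all 7 carry the same pair of words, TTCTCTCTC followed by GATCTA within 40 bases, which stand in capitals in these 60-base stretches.
SADHU1-1 (AT2G10410.1), chr2:4006944-4007003, minus strand: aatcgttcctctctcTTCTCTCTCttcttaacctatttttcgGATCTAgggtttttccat
SADHU5-1 (AT4G01525.1), chr4:660846-660905, plus strand: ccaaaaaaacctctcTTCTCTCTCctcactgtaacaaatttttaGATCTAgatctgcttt
SADHU1-3 (AT5G28626.1), chr5:10632274-10632333, plus strand: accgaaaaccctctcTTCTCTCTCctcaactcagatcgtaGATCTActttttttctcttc
SADHU4-1 (AT5G28913.1), chr5:10934666-10934725, minus strand: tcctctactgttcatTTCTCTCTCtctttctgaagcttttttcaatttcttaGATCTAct
SADHU10-1 (AT3G58865.1), chr3:21766026-21766085, plus strand: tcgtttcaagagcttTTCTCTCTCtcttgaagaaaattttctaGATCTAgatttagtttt
SADHU6-1 (AT3G02515.1), chr3:525381-525440, plus strand: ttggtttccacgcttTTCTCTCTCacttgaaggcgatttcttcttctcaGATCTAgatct
SADHU2-1 (AT1G35112.1), chr1:12841046-12841105, minus strand: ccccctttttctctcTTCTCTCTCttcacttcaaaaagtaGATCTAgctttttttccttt
The words were picked after the sequences were seen. The pair stood within the first 250 bases of 7 of 7 Sadhu members, of 0 of 515 other suffixed loci and of 10 of 23678 loci without a suffix (0.0422%), each on its own strand. The distance between the words ranged from 16 bases in SADHU1-3 and SADHU2-1 to 28 bases in SADHU4-1. 3 of the loci end in a run of A, of 16 bases in SADHU1-3, 31 in SADHU6-1 and 12 in SADHU2-1.

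14 of the 98 loci (14.3%) carry the word TGGTATCAGAGC on their own strand between 250 bases before and 100 bases after the start of the model. The word was read as the complement of the end of the initiator methionine tRNA, an end shared by 8 of the 11 such genes in the annotation, and is the usual primer binding site of plant Copia elements, a class of retrotransposons with long terminal repeats. Capitals mark it in 5 of the 14, shown because the first 2 fell in ion Al roots and the third has the highest level of the 14.
AT1G33813.1, chr1:12274675-12274734, minus strand: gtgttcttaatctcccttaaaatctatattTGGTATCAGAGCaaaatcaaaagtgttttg
AT4G04410.1, chr4:2189339-2189398, plus strand: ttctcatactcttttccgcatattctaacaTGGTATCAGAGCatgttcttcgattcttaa
AT2G06950.1, chr2:2863434-2863493, minus strand: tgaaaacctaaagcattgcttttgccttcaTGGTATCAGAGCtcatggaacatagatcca
AT4G10690.1, chr4:6589069-6589128, plus strand: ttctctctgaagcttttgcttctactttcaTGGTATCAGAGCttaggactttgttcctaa
AT5G47445.1, chr5:19247856-19247915, minus strand: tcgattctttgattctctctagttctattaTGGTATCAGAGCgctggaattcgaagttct
The word stood in the same window of 58 of 425 other suffixed loci (13.6%) and of 1 of 23678 loci without a suffix (0.00422%). All 14 loci are among the 79 for which no kind is named. 10 of the 14 also have a repeat of at least 80 bases that recurs in the same orientation beyond the site, as such elements do. Among these 10, only the repeat of AT4G28900.1 began, as aligned, with TG, the usual first bases of such repeats. The exact ends of the repeats are thus not established. The repeats of AT2G06950.1 (732 bases) and AT4G04410.1 (391 bases) are identical at both ends, and that of AT5G47445.1 (179 bases) is 92.7% identical. The match describes sequence and does not show that a site is used.

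The total by which RPKM is scaled, recovered from the values, was 12318429 to 14489392 reads a library. The reads recovered for all rows sum to more than that total, 13545311 to 16008886 a library (109% to 111% of it), and why was not tested. Percentages of reads are given of the scaling total. All 12 genes of a root marker list were at 1 RPKM or more in the nAl2O3 and control libraries and 10 of 12 in each ion Al library, and the summed level of 4 leaf markers was 23.4 and 24.4 RPKM in ion Al, 50.2 and 140 RPKM in nAl2O3 and 98.2 and 120 RPKM in control roots. The pollen marker in the table reached at most 0.238 RPKM, and the 2 seed markers listed had no row in it. The 4 ribosomal RNA genes came to 0.247% and 0.275% of that total in ion Al, 0.0922% and 0.118% in nAl2O3 and 0.109% and 0.00395% in control libraries. Their summed level was 1865 and 2437 RPKM in ion Al, 2232 and 2228 RPKM in nAl2O3 and 1872 and 124 RPKM in control libraries. Control replicate 2 stood apart on both measures. Genes of the organelles held 0.141% and 0.102% of the reads in ion Al libraries and 0.0156% to 0.0248% in the other 4. Apart from the pollen marker and the summed ribosomal RNA level, these values move with the groups. Their part in the results below was not tested.

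As a whole the loci are weakly expressed. The median of their mean levels was 3.07 RPKM, against 13.6 RPKM for all genes at the same minimum, and 21 of 98 averaged at least 10 RPKM. 58 were at 1 RPKM or more in all 6 libraries. Both ion Al libraries reached that level for 72 loci, both nAl2O3 libraries for 76 and both control libraries for 75. 5 loci reached it in the ion Al pair alone and 6 in the nAl2O3 and control pairs but in neither ion Al library.

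The highest locus was SADHU1-1 (AT2G10410.1, chr2:4005995-4007044), with 115 and 146 RPKM in ion Al, 216 and 237 RPKM in nAl2O3 and 181 and 48.8 RPKM in control roots. The 2 control libraries span the ion Al values, and the locus overlaps a gene of the other strand. AT2G11240.1, which overlaps 2 genes of the other strand, was nearly level, with 66.1 and 68.3 RPKM in ion Al, 63.3 and 59.6 RPKM in nAl2O3 and 71.2 and 70.5 RPKM in control roots. Others among the 10 highest were AT1G35115.1, with 15.4 to 35.2 RPKM over the 6 libraries, AT2G06950.1, with 19.3 to 33.8 RPKM, AT4G08110.1, with 18.0 to 36.8 RPKM, AT1G80020.1, with 15.6 to 29.0 RPKM, and AT2G13970.1, with 12.9 to 32.2 RPKM. For the first 4 of these the ranges of at least 1 pair of groups overlap, while the groups of AT2G13970.1, which overlaps a gene of the other strand, do not overlap and did not pass against control (log2 difference in ion Al -0.84 ± 0.25, adjusted p = 0.0515). Of the 10 highest, 3 passed the test in ion Al against control, and they are AT1G33817.1, AT1G35612.1 and AT3G43690.1, described below.

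**Figure D1:**
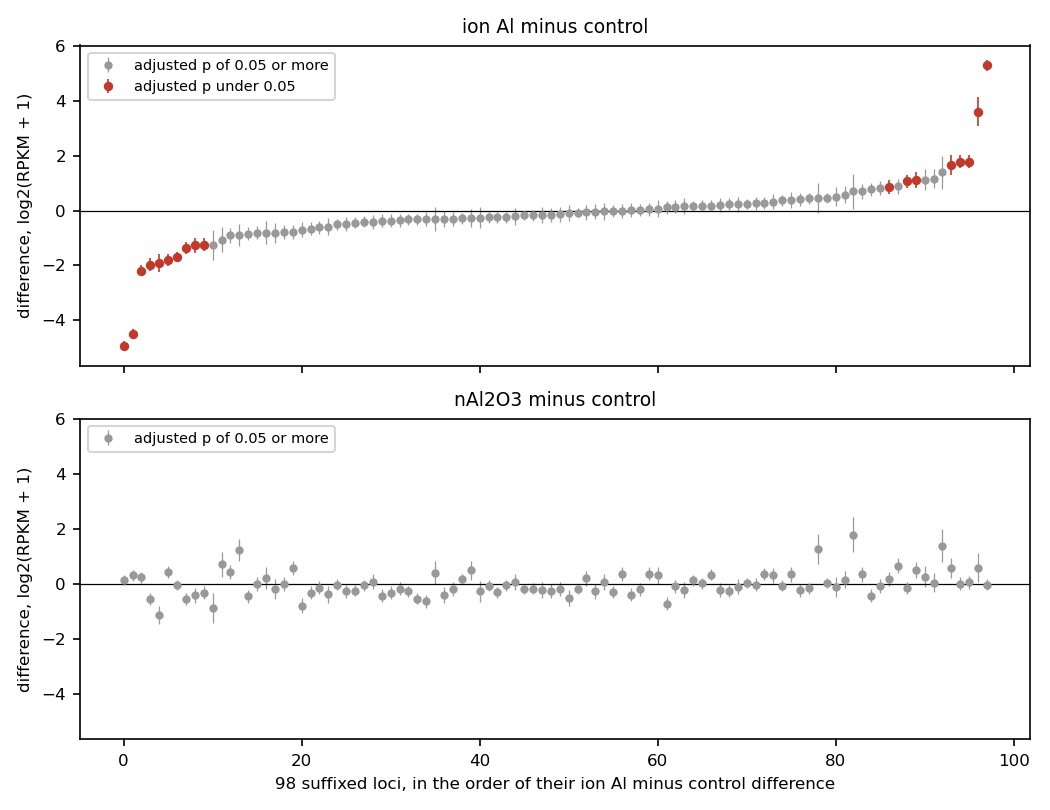
Differences of the 98 suffixed loci on the log2(RPKM + 1) scale with their moderated standard errors, ion Al minus control above and nAl2O3 minus control below, both in the order of the upper panel. In ion Al 8 loci rose and 10 fell (red), while no locus passed in nAl2O3.

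Differences were tested with limma on log2(RPKM + 1) over 19648 genes, and a gene passed at an adjusted p (Benjamini-Hochberg) below 0.05. In ion Al against control roots 8 of the 98 loci rose and 10 fell, where 22.6% of all tested genes passed, 12.3% upward and 10.3% downward. Without control replicate 1 the count was 33, with 14 higher and 19 lower, and under TPM scaling 7 were higher and 14 lower. At an unadjusted p under 0.05 the members' count was 34, where 37.9% of all tested genes had such a p. The 18 loci are thus about as large a share as the background, and their number is no result about suffixed loci. 13 of the 18 are among the 40 loci that were under 1 RPKM in at least 1 library. Such loci entered the list only through the libraries in which they are high. Of the 98 loci, 5 reached 1 RPKM in the ion Al pair alone, 1 in the control pair alone and 0 in the nAl2O3 pair alone. For those, the rule and the test used the same values. The median difference over the 98 loci was -0.15 on the log2 scale, beside 0.06 over all tested genes. Nothing in the labels says that libraries of a group came from separate plants, so the p-values reflect how much these libraries vary, and that variation may be technical. In whole roots, fewer cells of a type and less RNA per cell cannot be told apart.

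Among the loci that fell, the largest difference was in a pair on chromosome 1 with no named kind. AT1G33817.1 (chr1:12274982-12276763) had 0.228 and 0.118 RPKM in ion Al, 36.5 and 41.6 RPKM in nAl2O3 and 37.3 and 32.9 RPKM in control roots. Its 2 ion Al libraries held 8 reads together and its 2 control libraries 1766. Per library total this was 208-fold lower (95% counting interval 105 to 483), a log2 difference of -4.94 ± 0.19 (adjusted p = 5.08e-05). The next locus on the same strand, 335 bases away, is AT1G33813.1 (chr1:12273243-12274646), one of the loci with the primer word. It had 0.173 and 0.050 RPKM in ion Al, 30.5 and 29.6 RPKM in nAl2O3 and 21.9 and 26.7 RPKM in control roots, a log2 difference of -4.50 ± 0.19 (adjusted p = 8.34e-05). In both loci the ion Al libraries lie far below all 4 others, which differ little among themselves.

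AT4G04410.1 (chr4:2189515-2193763), one of the loci with identical terminal repeats, had 0.363 RPKM in each ion Al library, 5.65 and 6.98 RPKM in nAl2O3 and 5.08 and 5.35 RPKM in control roots. It was 14.4-fold lower in ion Al by reads (interval 10.5 to 20.2), a log2 difference of -2.19 ± 0.21 (adjusted p = 0.00101). It has 1 copy elsewhere at 90% identity or more over much of its length. How its reads were shared with that copy is not known here. AT4G04410.1 and AT1G33813.1 are the only 2 of the 14 loci with the primer word that passed in this comparison, and none of the 14 rose. AT5G28145.1 had 0.610 and 0.226 RPKM in ion Al, 2.52 and 3.0 RPKM in nAl2O3 and 4.76 and 4.30 RPKM in control roots (log2 difference -1.98 ± 0.23, adjusted p = 0.00213). For AT5G28145.1 the nAl2O3 values fall between those of the other groups.

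Of the 4 loci with no read in either ion Al library, 2 passed against control, AT1G36680.1 and AT3G30766.1. AT1G36680.1 (chr1:13871080-13872202) had 3.29 and 4.04 RPKM in nAl2O3 and 2.64 and 2.28 RPKM in control roots, and was at least 24.5-fold lower in ion Al, computed against a floor of 3 reads over the 2 libraries (log2 difference -1.79 ± 0.21, adjusted p = 0.00228). AT3G30766.1 had 0.643 and 0.755 RPKM in nAl2O3 and 1.71 and 4.15 RPKM in control roots, and was at least 14.5-fold lower in ion Al (log2 difference -1.90 ± 0.33, adjusted p = 0.00859). At 90% identity or more over much of the length, AT1G36680.1 has 1 copy elsewhere and AT3G30766.1 has 7. How reads were shared with these copies is not known here. AT3G30766.1 reached 1 RPKM in the control pair alone, so its place in the list rests on the values that the test compares. Its call was lost without either ion Al library. Its neighbour AT3G30764.1, 1125 bases away, had 0 and 0.0926 RPKM in ion Al, 0.638 and 1.16 RPKM in nAl2O3 and 1.09 and 1.99 RPKM in control roots. That is a log2 difference of -1.26 ± 0.28 (adjusted p = 0.0200), lost without control replicate 2 and without either ion Al library.

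The most abundant locus that fell was AT1G35612.1 (chr1:13145643-13146693), the pseudogene of a Ulp1 protease, a class of enzymes that trims the SUMO modifier from proteins. It had 31.7 and 38.3 RPKM in ion Al, 105 and 116 RPKM in nAl2O3 and 109 and 118 RPKM in control roots. It was 3.23-fold lower in ion Al (interval 3.0 to 3.47), a log2 difference of -1.68 ± 0.19 (adjusted p = 0.00179), and the 4 other libraries lie within 105 to 118 RPKM. AT4G10830.1 had 0.265 and 0.0704 RPKM in ion Al, 0.999 and 1.12 RPKM in nAl2O3 and 2.16 and 1.89 RPKM in control roots (log2 difference -1.38 ± 0.22, adjusted p = 0.00682). 99.8% of its span is matched elsewhere at 95% identity, and how its reads were shared with that copy is not known here. AT2G14220.1 had 1.01 and 1.82 RPKM in ion Al, 3.30 and 3.73 RPKM in nAl2O3 and 4.60 and 4.70 RPKM in control roots (log2 difference -1.25 ± 0.24, adjusted p = 0.0122), and its call was lost without ion Al replicate 1.

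Among the loci that rose, AT2G04460.1 (chr2:1547538-1548999) stood first. It had 39.9 and 38.3 RPKM in ion Al, 0 RPKM in both nAl2O3 and 0 and 0.050 RPKM in control roots. That is 1516 reads in the ion Al libraries against 1 in the control libraries, whose ratio has a counting interval of 288 to 63539, with a log2 difference of 5.29 ± 0.20 (adjusted p = 4.99e-05). Against nAl2O3 it was at least 531-fold higher. AT2G04460.1 reached 1 RPKM in the ion Al pair alone, so its place in the list rests on the values that the test compares. SADHU1-1 and AT2G11240.1 were higher than it in both ion Al libraries and AT1G35612.1 in ion Al replicate 2, and none of its span is matched elsewhere at 95% identity. AT1G65485.1 had 8.55 and 23.7 RPKM in ion Al, 0.268 and 1.84 RPKM in nAl2O3 and 0.128 and 0.405 RPKM in control roots. It rested on 240 reads against 4, 63.6-fold higher (interval 24.5 to 235), with a log2 difference of 3.61 ± 0.53 (adjusted p = 0.00490). The 2 ion Al libraries of AT1G65485.1 lie far apart, yet both lie above the other 4.

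2 more loci had reads almost only in ion Al roots. These 2 and AT1G20390.1 reached 1 RPKM in the ion Al pair alone. Their place in the list thus rests on the values that the test compares. AT3G29784.1 had 2.90 and 2.02 RPKM in ion Al and no read in any of the other 4 libraries, at least 23.0-fold higher than control (log2 difference 1.78 ± 0.23, adjusted p = 0.00327). AT2G04135.1 had 2.08 and 2.86 RPKM in ion Al, 0.0845 and 0 RPKM in nAl2O3 and 0 RPKM in both control libraries, at least 20.1-fold higher than control (log2 difference 1.79 ± 0.23, adjusted p = 0.00308). 82.6% of the span of AT2G04135.1 is matched elsewhere. AT1G20390.1 had 1.63 and 1.90 RPKM in ion Al, 0.119 and 0.269 RPKM in nAl2O3 and 0.421 and 0.229 RPKM in control roots (log2 difference 1.06 ± 0.23, adjusted p = 0.0181), and its call was lost without control replicate 2 or ion Al replicate 2. AT3G43690.1 had 27.8 and 29.1 RPKM in ion Al, 18.7 and 15.8 RPKM in nAl2O3 and 19.3 and 11.9 RPKM in control roots. Its log2 difference of 0.86 ± 0.25 (adjusted p = 0.0492) is at the threshold, and the call was kept in 2 of 15 alternative settings.

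**Figure D2:**
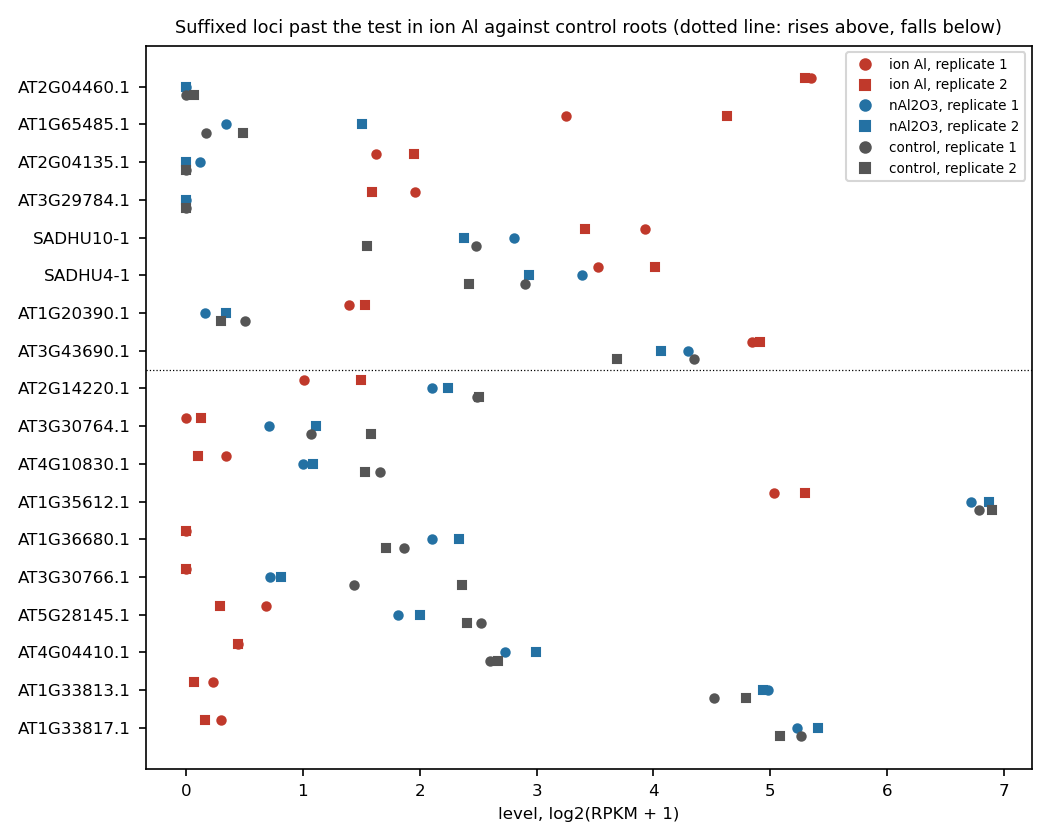
Level on the log2(RPKM + 1) scale of the 18 loci that passed in ion Al against control roots, 1 point for each library, with the 8 loci that rose above the dotted line and the 10 that fell below it. In several loci that fell, AT1G33817.1 and AT1G35612.1 among them, the nAl2O3 points lie with the control points, and AT2G04460.1 and AT3G29784.1 have points above 1 in ion Al alone.

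The window from 250 bases before to 50 bases after the model start was searched for GNATATNC, the P1BS motif (N is any base) bound by PHR1, the regulator of phosphate-starvation genes in Arabidopsis. The motif is its own reverse complement, so both strands were covered, and it was chosen with earlier results of these data known. Of the 8 loci that rose, 2 held it, AT2G04460.1 with the motif 141 bases before the start and AT3G29784.1 with it 24 bases after the start, in capitals here.
AT2G04460.1, chr2:1549107-1549166, minus strand: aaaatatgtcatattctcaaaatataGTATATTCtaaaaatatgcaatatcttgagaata
AT3G29784.1, chr3:11690057-11690116, plus strand: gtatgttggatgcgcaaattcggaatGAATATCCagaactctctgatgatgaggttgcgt
Of the 10 loci that fell, 1 held the motif. Over all 98 loci the share was 6.12%, over the other suffixed loci 5.65% and over the loci without a suffix 6.29% (1489 of 23678). The members are thus at the background, and a match is no evidence of a site.

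Of the 7 Sadhu loci, 2 rose in ion Al against control roots and none fell. SADHU10-1 (AT3G58865.1) had 14.3 and 9.65 RPKM in ion Al, 5.98 and 4.20 RPKM in nAl2O3 and 4.60 and 1.93 RPKM in control roots (3.57-fold higher by reads, log2 difference 1.65 ± 0.36, adjusted p = 0.0196). SADHU4-1 (AT5G28913.1) had 10.5 and 15.1 RPKM in ion Al, 9.50 and 6.64 RPKM in nAl2O3 and 6.46 and 4.34 RPKM in control roots (2.40-fold higher, log2 difference 1.11 ± 0.28, adjusted p = 0.0329). In both the ion Al libraries lie above the control libraries, and SADHU10-1 overlaps a gene of the other strand. The call of SADHU10-1 was lost without either ion Al library, and that of SADHU4-1 was kept in 6 of 15 alternative settings and was lost without control replicate 2, without either nAl2O3 library and without either ion Al library.

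The other 5 Sadhu loci did not pass in this comparison. SADHU5-1 had 18.6 and 22.4 RPKM in ion Al, 20.6 and 20.3 RPKM in nAl2O3 and 16.3 and 2.88 RPKM in control roots, and 83.8% of its span is matched elsewhere. SADHU6-1 had 2.38 and 3.88 RPKM in ion Al, 6.79 and 8.57 RPKM in nAl2O3 and 4.36 and 0.165 RPKM in control roots. In both loci the control libraries lie further apart than the libraries of either other group. SADHU2-1, which overlaps a gene of the same strand, had 0.729 and 1.5 RPKM in ion Al, 0.813 and 1.03 RPKM in nAl2O3 and 1.32 and 1.31 RPKM in control roots.

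All 7 Sadhu loci were lower in control replicate 2 than in control replicate 1, by a ratio of 0.0378 to 0.996, where 1 of 7 MUSTANG loci and 30 of the 79 loci with no named kind were lower. The ribosomal RNA share given above was lower in the same library, and what that has to do with the Sadhu levels was not tested. Their summed reads were 2136 and 2960 in ion Al, 4116 and 4484 in nAl2O3 and 3676 and 983 in control libraries. Control replicate 1 therefore lay near the nAl2O3 libraries and control replicate 2 below all others.

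None of the 7 MUSTANG loci passed in any of the 3 comparisons with limma, with log2 differences of -0.32 to 0.46 in ion Al against control, -0.28 to 0.07 in nAl2O3 against control and -0.11 to 0.43 in ion Al against nAl2O3, and 1, 0 and 0 of them had an unadjusted p under 0.05. MUG7 (AT3G05850.1), the highest of them, had 8.14 and 9.33 RPKM in ion Al, 9.86 and 9.07 RPKM in nAl2O3 and 8.59 and 14.0 RPKM in control roots. MUG1 (AT3G04605.1) had 12.7 and 10.2 RPKM in ion Al, 8.30 and 8.05 RPKM in nAl2O3 and 7.83 and 8.17 RPKM in control roots, a log2 difference of 0.46 ± 0.19 against control that did not pass (adjusted p = 0.125). CYTOSLEEPER had 1.95 and 2.16 RPKM in ion Al, 1.55 and 1.46 RPKM in nAl2O3 and 1.73 and 2.52 RPKM in control roots. In MUG1 both ion Al libraries lie above the other 4, in MUG7 and CYTOSLEEPER at least 1 pair of groups overlaps, and a missing call does not show that these host genes were unchanged. AT1G43675.1, the higher of the 2 loci similar to non-LTR retrotransposons, varied within its group, with 11.0 and 2.42 RPKM in ion Al, 5.77 and 9.03 RPKM in nAl2O3 and 12.6 and 15.9 RPKM in control roots, and did not pass.

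**Figure D3:**
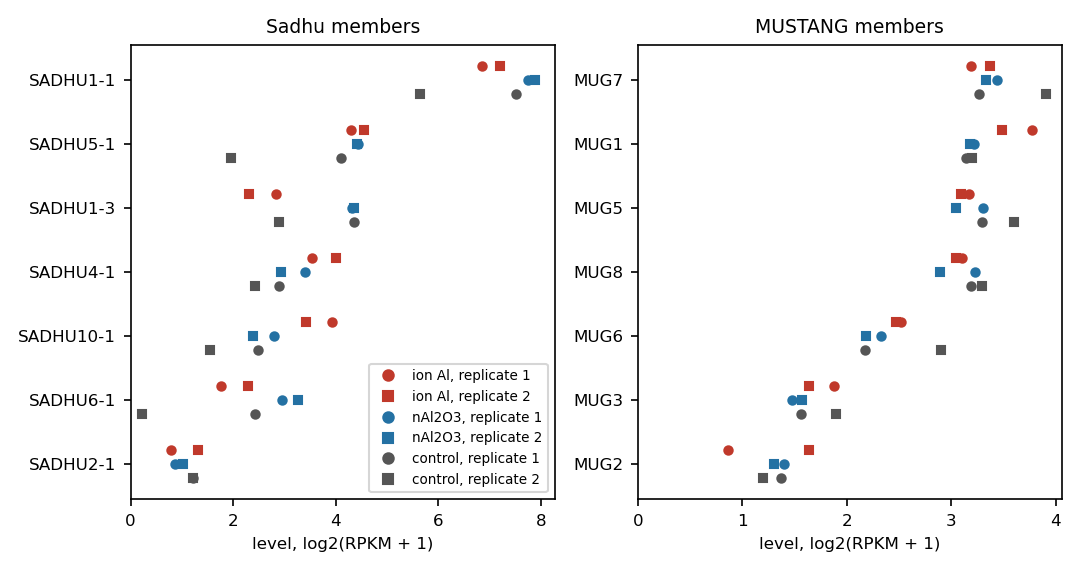
Level on the log2(RPKM + 1) scale of the 7 Sadhu loci (left) and the 7 MUSTANG loci (right), 1 point for each library. Control replicate 2 is the lowest library for 5 Sadhu loci, while the MUSTANG points of each locus lie close together.

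In nAl2O3 against control roots 0 of 98 loci passed with limma, where 0% of all tested genes passed. 11 loci had an unadjusted p under 0.05, a threshold met by 6.65% of all tested genes. The median difference was -0.06, beside -0.03 over all genes. SADHU6-1 differed by 1.79 ± 0.65 on the log2 scale, EXT11 by 1.25 ± 0.40 and AT3G30766.1 by -1.14 ± 0.33, each at an adjusted p of 0.595, the lowest reached by any gene in this comparison. The count depends on 1 control library. Without control replicate 1, 11 of the 98 loci passed, 5 higher and 6 lower, and the count was 0 under the other settings tried. SADHU1-1, SADHU5-1 and SADHU6-1, all higher in nAl2O3 on average, had the lowest ratios of control replicate 2 to control replicate 1 among the Sadhu loci.

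In ion Al against nAl2O3 roots 8 of the 98 loci were higher and 12 lower, where 25.3% of all tested genes passed, 13.3% higher and 11.9% lower. The unadjusted count was 30, where 39.3% of all tested genes had an unadjusted p under 0.05, so the members' share is again near the background. The count was 9 and 11 without nAl2O3 replicate 1 and 2, and 13 and 12 without ion Al replicate 1 and 2. The comparison shares its ion Al libraries with the one against control, so the loci named above are given only side by side. On the log2 scale AT1G33817.1 differed by -5.09 from nAl2O3 and by -4.94 from control, AT1G35612.1 by -1.63 and -1.68, and AT2G04460.1 by 5.32 and 5.29.

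Several loci passed only against nAl2O3, which does not show that the 2 comparisons differ. EXT11 is a pseudogene named after the extensins of the cell wall. It has 7 copies elsewhere at 90% identity or more over much of its length. How its reads were shared with those copies is not known here. EXT11 had 0.321 and 0.139 RPKM in ion Al and 4.54 and 4.20 RPKM in nAl2O3. In control roots it had 2.49 and 0.469 RPKM. It was 19.6-fold lower than in nAl2O3 by reads (log2 difference -2.13 ± 0.40, adjusted p = 0.0107). SADHU1-3 (AT5G28626.1) had 6.10 and 3.95 RPKM in ion Al and 19.0 and 19.4 RPKM in nAl2O3, with 19.6 and 6.39 RPKM in control roots (log2 difference -1.77 ± 0.46, adjusted p = 0.0327). In both loci the ion Al libraries lie below every other library and the control libraries lie far apart. Their calls were lost without either nAl2O3 library and without either ion Al library.

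AT3G48370.1 had 0 and 0.0942 RPKM in ion Al and 1.75 and 1.62 RPKM in nAl2O3, with 0.556 and 1.08 RPKM in control roots (log2 difference from nAl2O3 -1.36, adjusted p = 0.00895). AT3G45120.1 held no read in ion Al and had 2.03 and 1.1 RPKM in nAl2O3, with 1.08 and 0.683 RPKM in control roots (at least 4.45-fold lower, log2 difference -1.34, adjusted p = 0.0135). AT3G44705.1 had 2.43 and 2.92 RPKM in ion Al and 0.538 and 0.608 RPKM in nAl2O3, with 0.880 and 1.42 RPKM in control roots (4.70-fold higher, log2 difference 1.22, adjusted p = 0.0113). In these 3 the control libraries lie between the other groups. Each of these calls was lost when some single library was left out, among them nAl2O3 replicate 1 for all 3. AT3G45120.1 has 16 copies elsewhere at 90% identity or more over much of its length. How its reads were shared with those copies is not known here. The 2 remaining loci that passed only here, AT5G10850.1 (log2 difference 0.89, adjusted p = 0.0419) and AT1G35115.1 (0.84, adjusted p = 0.0439), stood near the threshold, and 89.7% of the span of AT1G35115.1 is matched elsewhere.

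Levels of nearby rows on the chromosome were set beside those of a member. 36 pairs were formed of a locus that passed in ion Al against control and its nearest tested row on either side, and 15 of these pairs skip untested rows, with gaps of up to 131616 bases. The neighbour passed in the same direction in 10 pairs and in the other direction in 4. Of the 10, 4 are 2 pairs of members counted from both ends, which leaves 6 neighbours that are not members. Among 160 pairs of the other loci the neighbour passed in 39, counted in either direction. Over all tested genes 22.6% passed, 12.3% higher and 10.3% lower. Beside AT1G33817.1, AT1G33820 had 0 RPKM in both ion Al, 1.58 and 0.775 RPKM in nAl2O3 and 1.26 and 0.932 RPKM in control roots (log2 difference -1.06, adjusted p = 0.0303). Further on that side AT1G33840, singled out after its values were seen, had 0 RPKM in both ion Al, 80.4 and 65.9 RPKM in nAl2O3 and 54.2 and 31.1 RPKM in control roots, a larger log2 difference than that of either member (-5.40, adjusted p = 0.000128). AT1G33830, between AT1G33820 and AT1G33840, was at 0 RPKM in both ion Al libraries and under the minimum. On the far side of the pair AT1G33810 had 45.5 and 40.5 RPKM in ion Al, 39.8 and 43.1 RPKM in nAl2O3 and 41.5 and 47.5 RPKM in control roots. The low stretch in ion Al thus ran from AT1G33813.1 at least to AT1G33840, and AT1G33810 lay outside it. Beside AT1G36680.1, AT1G36675 had 0 RPKM in both ion Al, 8.26 and 9.58 RPKM in nAl2O3 and 5.64 and 1.81 RPKM in control roots (log2 difference -2.11, adjusted p = 0.0113). Beyond AT3G30766.1, AT3G30770 had 0.627 and 0.116 RPKM in ion Al, 3.48 and 3.25 RPKM in nAl2O3 and 3.85 and 3.71 RPKM in control roots (log2 difference -1.83, adjusted p = 0.00354).

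The rows beside AT2G04460.1, NUDT6 and AT2G04480, differed from control by 0.26 and 1.07 on the log2 scale and did not pass (adjusted p = 0.511 and 0.0872). Next to AT1G35612.1, which fell, AT1G35610 on the other strand had 3.84 and 2.33 RPKM in ion Al, 0.709 and 0.463 RPKM in nAl2O3 and 1.13 and 0.874 RPKM in control roots, a rise of 1.01 (adjusted p = 0.0355). Beside SADHU10-1, AT3G58900 had 15.4 and 18.2 RPKM in ion Al, 8.13 and 8.08 RPKM in nAl2O3 and 7.18 and 7.12 RPKM in control roots, a rise of 1.12 (adjusted p = 0.00703). Whether reads run on from one row into the next was not tested.

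**Figure D4:**
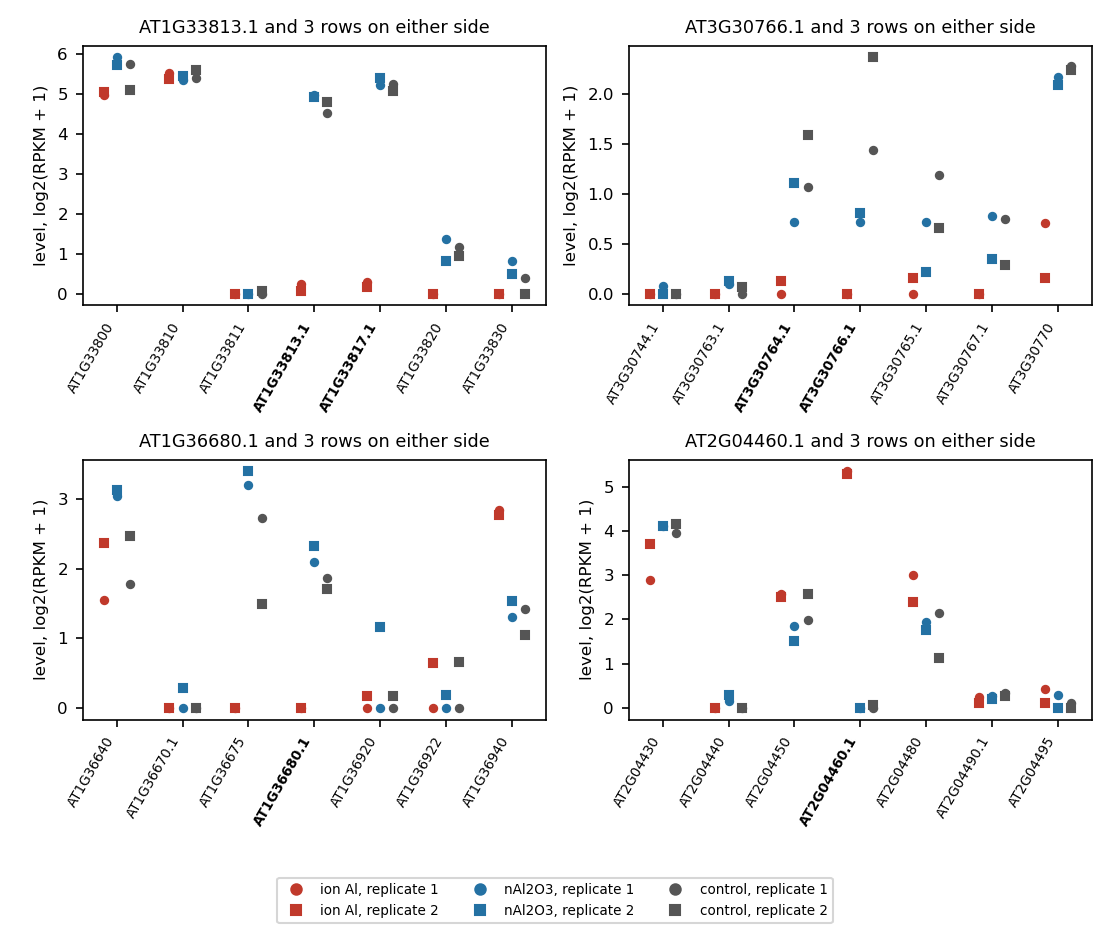
Level on the log2(RPKM + 1) scale of 4 groups of rows in their order on the chromosome, each a member that passed in ion Al against control with 3 rows of the table on either side. Members at the minimum are in bold, and in the first 3 panels the ion Al points of adjoining rows lie at or near 0 together.

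Genes that act in silencing transposons were read from a list of 51 loci chosen from knowledge of the pathway, of which 49 were tested. In ion Al against control roots 4 of 49 rose and none fell, a smaller share than the 22.6% of all tested genes that passed. AGO4, the argonaute that carries small RNAs to their target loci, had 33.4 and 30.6 RPKM in ion Al, 13.7 and 11.7 RPKM in nAl2O3 and 14.2 and 15.7 RPKM in control roots (log2 difference 1.05 ± 0.18, adjusted p = 0.00836). SHH1, which recruits RNA polymerase IV, had 22.7 and 23.3 RPKM in ion Al, 11.3 and 11.0 RPKM in nAl2O3 and 12.5 and 13.5 RPKM in control roots (log2 difference 0.78 ± 0.17, adjusted p = 0.0187). For both genes the ion Al values exceed all 4 others, which lie close together.

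ATXR6, a histone methyltransferase of silent chromatin, differed by 1.01 ± 0.21 (adjusted p = 0.0175), with 10.7 and 8.17 RPKM in ion Al, 3.45 and 2.85 RPKM in nAl2O3 and 4.19 and 4.08 RPKM in control roots. HEN1, which methylates the ends of small RNAs, differed by 0.73 ± 0.19 (adjusted p = 0.0350), with 6.17 and 6.5 RPKM in ion Al, 2.82 and 3.0 RPKM in nAl2O3 and 3.26 and 3.56 RPKM in control roots. Of 15 alternative settings, the call was kept in 14 for AGO4, 13 for ATXR6, 9 for SHH1 and 5 for HEN1. DDM1, the remodeller needed to keep heterochromatin methylated, and MET1, the maintenance DNA methyltransferase, did not pass (log2 differences 0.12 and 0.06). The count of 4 rests on single libraries. It was 0 without ion Al replicate 1, 2 without ion Al replicate 2, 2 without either nAl2O3 library and 12 without control replicate 1, with 7 higher and 5 lower. It was 3 higher and 3 lower under quantile normalization, 3 higher and 2 lower under TPM scaling and 4 higher and 1 lower under median-of-ratios scaling.

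In nAl2O3 against control roots 0 of the 49 silencing genes passed with limma and 7 had an unadjusted p under 0.05, where 6.65% of all tested genes had such a p. 41 of 49 differences were negative, beside 10534 of 19648 over all tested genes, with a median of -0.31 beside -0.03, and without control replicate 1 the count was 8, 1 higher and 7 lower. The control libraries differed for some of these genes and were level for others. DDM1 had 7.14 and 5.95 RPKM in nAl2O3 and 7.12 and 11.5 RPKM in control roots. ATXR6 had 3.45 and 2.85 RPKM in nAl2O3 and 4.19 and 4.08 RPKM in control roots. How far the shift rests on control replicate 2 was not tested. In ion Al against nAl2O3 roots 6 passed higher and 1 lower, 14.3% of the list, where 25.3% of all tested genes passed, 13.3% higher and 11.9% lower. CMT3, a DNA methyltransferase of CHG sites, had 29.99 and 20.9 RPKM in ion Al, 12.6 and 10.5 RPKM in nAl2O3 and 15.8 and 21.7 RPKM in control roots (log2 difference from nAl2O3 1.06, adjusted p = 0.0241). HTA12, a histone H2A of heterochromatin, had 25.05 and 29.8 RPKM in ion Al, 51.8 and 56.1 RPKM in nAl2O3 and 37.1 and 40.5 RPKM in control roots (log2 difference from nAl2O3 -0.95, adjusted p = 0.0106). HTA6 and HTA7, the other H2A genes of the list, are more abundant and lay the other way without passing. HTA6 had 194 and 160 RPKM in ion Al, 105 and 101 RPKM in nAl2O3 and 126 and 35.2 RPKM in control roots. HTA7 had 176 and 140 RPKM in ion Al, 99.3 and 89.2 RPKM in nAl2O3 and 124 and 60.1 RPKM in control roots. That count also rests on single libraries, since it was 2 and 0 without nAl2O3 replicate 1 and 2, 3 and 4 without ion Al replicate 1 and 2, and 14 without either control library.

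The summed reads of all 523 suffixed loci, which do not depend on the minimum, are the next measure. They came to 0.197% and 0.196% of the reads in ion Al, 0.207% and 0.201% in nAl2O3 and 0.212% and 0.215% in control libraries. Of the reads summed over all rows they were 0.179% and 0.178% in ion Al, 0.187% and 0.182% in nAl2O3 and 0.192% and 0.197% in control libraries. On both bases the ion Al shares lie below all 4 others, but 2 against 2 libraries cannot go below an exact two-sided p of 0.33. Without the 3 loci with the most reads the shares were 0.130% in each ion Al library, 0.137% and 0.132% in nAl2O3 and 0.140% and 0.157% in control libraries. Of the 425 suffixed loci under the minimum, 27.1% and 40.7% had at least 1 read in ion Al, 48.0% and 47.1% in nAl2O3 and 49.6% and 44.0% in control libraries. Among 4243 nuclear rows without a suffix that were also under the minimum, the shares were 44.4% and 63.5% in ion Al, 60.6% and 64.6% in nAl2O3 and 62.6% and 55.6% in control libraries. Ion Al replicate 1, the library with the fewest reads, was the lowest in both sets.

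**Figure D5:**
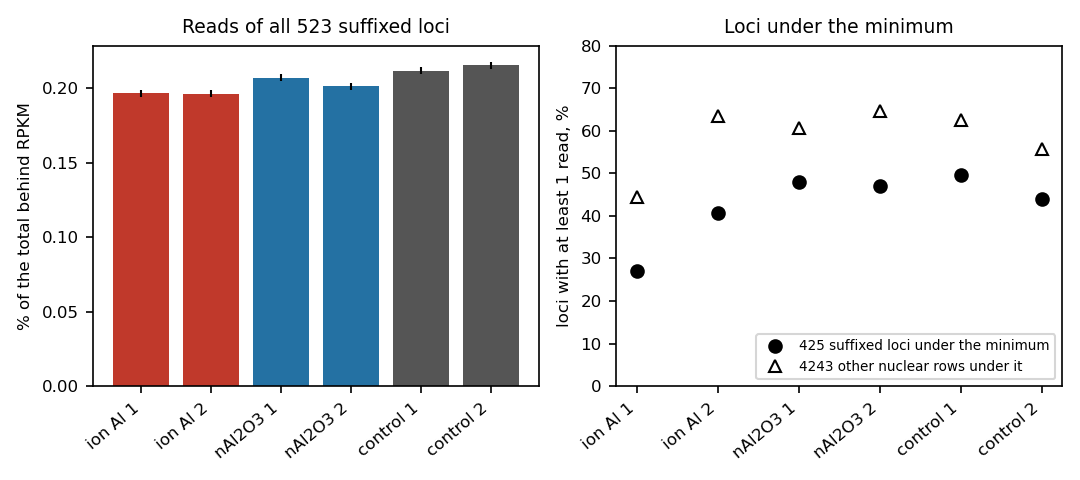
Left, reads of all 523 suffixed loci as a percentage of the total by which RPKM is scaled in each library, 0.196% to 0.197% in ion Al and 0.212% to 0.215% in control roots, with 95% Wilson intervals for counting error. Right, percentage of the 425 suffixed loci under the minimum (filled) and of 4243 other nuclear rows under it (open) with at least 1 read, and ion Al replicate 1 is the lowest in both sets.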

How the data were processed

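RNA-seq values of 6 root libraries were used, 2 in each of 3 groups, which were read from the sample titles. nAl2O3 replicate 2 is spelled nAl2O4 in labels other than its title. The table holds RPKM for 24438 rows as deposited by the authors, the unit being taken from the name of the table and checked against its values, and 0 of its columns were left unmapped. TAIR10 as the build, HTSeq 0.6.0 and TopHat2 2.0.12 appear, without roles, in the submitters' processing notes. The sources used here do not say how strand and multiply matching reads were handled.

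The members and lists were chosen with earlier results of these data known. The steps between RPKM values gave back the scaling totals and the reads, and all 24438 rows came out as whole reads within a tolerance of 1e-06. For 3442 rows the annotated exon length gave whole reads, and for 20982 the length was the fitting one nearest to it, so reads of those rows are less certain. The implied lengths equal the exon lengths of RefSeq TAIR10.1 for 96 of 98 members and 519 of 523 suffixed loci, and coordinates and sequences are those of TAIR10.1. For AT2G11880.1 and MUG3 they differ. Their differences rest on RPKM alone, and their recovered reads enter only the summed reads of suffixed loci.

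limma 3.58.1 in R 4.3.3 was run on log2(RPKM + 1), with a pseudocount of 1, over the 19648 genes that reached 1 RPKM in 2 or more libraries. A single fit of all 3 groups used a mean-variance trend, 3 residual and 3.81 prior degrees of freedom. p-values are two-sided, and adjusted p-values are Benjamini-Hochberg values over all genes tested. Differences on this scale understate the change of low genes and carry a moderated standard error. The fit was tested on simulated data. Folds are ratios of reads per library total over the 2 libraries of a group, with exact 95% intervals that cover counting error only, as do the floors of 3 reads. Copies were searched with BLAST+ 2.17.0. Named loci are the 10 highest, up to 12 rises and falls past the test in each comparison with at least 1 RPKM in the higher group, the 2 on either side of the threshold, up to 8 silencing genes past the test, the nearest neighbours and the highest of each annotated kind. MUG1, 3 further Sadhu loci, AT5G47445.1, AT4G10690.1, AT4G28900.1, AT1G33830, AT1G33840, DDM1, MET1, HTA6 and HTA7 are named in addition. They are named for their sequence or kind or as genes of the pathway, and were chosen after their values were seen. Alternatives were another pseudocount, filter, scaling, fit and block, library weights, each library left out, members without copies and, added after seeing the data, another base for the summed share.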

Additional observations from a re-analysis of the deposited data

How the results depend on the processing

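The count of 18 members called in ion Al against control was 9, of 42 members tested, with a filter at 5 RPKM and 13 to 33 with 1 library left out, the 33 being without control replicate 1. Other settings gave 14 to 21, with 7 higher and 14 lower under TPM scaling, and 13 of the 72 members with little matching sequence elsewhere passed, an alternative chosen after seeing the data. The median of -0.15 was -0.21 with that filter, -0.24 under TPM scaling, -0.22 under quantile normalization and -0.18 to -0.093 with 1 library left out. In nAl2O3 against control the count was 0 to 11 with 1 library left out and the median of -0.06 was -0.13 under TPM scaling and -0.11 to -0.012 with 1 library left out. In ion Al against nAl2O3 the count of 20 was 9 with the filter, 31 with library weights and 9 to 29 with 1 library left out, and the median of 0.02 was -0.11 under median-of-ratios scaling, -0.087 under quantile normalization and -0.097 to 0.062 with 1 library left out. The count of silencing genes in ion Al against control was 2 with only the compared groups, 1 with library weights and 0 to 12 with 1 library left out. In nAl2O3 against control it was 0 to 8, and in ion Al against nAl2O3 it was 14 with only the compared groups, 14 with library weights and 0 to 14 with 1 library left out. The cause was not tested. The median over all genes in ion Al against control was 0.06, and -0.04 under TPM scaling, and in ion Al against nAl2O3 0.13, and 0.00 under median-of-ratios scaling. Same-numbered libraries did not deviate together (correlations -0.054, -0.164 and 0.075). With 2 libraries a group, this cannot show whether those libraries were grown or processed together. With a replicate block 17, 0 and 19 members and 3, 0 and 6 silencing genes passed. Of 38 member calls, 19 were kept under every alternative run and 19 were lost under at least 1, and none reversed. Where a left-out library leaves 1 in a group, it is assumed to vary like the other groups. At these depths a locus of few reads is limited by counting, and a locus at 0 reads is not shown to be silent.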

Other observations

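Of the suffixed loci under the minimum, AT2G05660.1 (chr2:2108121-2114699) held 751 reads (9.27 RPKM) in ion Al replicate 1 and 0 in each of the other 5 libraries. The 425 loci under the minimum held 1812 and 1102 reads in ion Al, 934 and 833 in nAl2O3 and 1071 and 971 in control libraries, and without AT2G05660.1 ion Al replicate 1 held 1061. 73.7% of the span of AT2G05660.1 is matched elsewhere in the genome at 95% identity. AT1G44060.1 held 27 reads in the same library and 0 in the other 5. Both loci were singled out after their values were seen. With 1 library each, neither belongs in a comparison between groups.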
